A study of Mus musculus with 12 samples.

Results

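The plasma and acute phase protein genes of the hepatocyte were followed as 41 genes chosen by symbol, of 24956 gene symbols in the count table, and all 41 were in it. Of these, 28 encode constitutive plasma proteins, such as albumin, transferrin, the apolipoproteins and the clotting zymogens, and 13 encode acute phase proteins, such as the fibrinogen chains, haptoglobin, hemopexin and the orosomucoids. Counts came from 12 tumours of PDA.69, a pancreatic ductal adenocarcinoma (PDAC) line that came from KPC mice, which are engineered to develop this cancer, and that is labelled low in T cells. The 6 WT tumours grew in wild-type host mice. The other 6 grew in Alb-Cre+/+ STAT3f/f mice, called Alb-Cre Stat3f/f here, whose albumin promoter drives the Cre recombinase that removes the floxed Stat3 gene from hepatocytes. The tumour line was the same in both groups. Host age and sex, and whether each tumour came from a separate mouse, are not in the labels, and p-values then cover only the spread from tumour to tumour, which may be technical. RNA was scraped from fixed, paraffin-embedded tumour sections and made into 3' end libraries, in which a transcript gives about 1 read whatever its length, so that counts can be compared between genes without division by length.

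Hepatocytes make most plasma proteins and secrete them into blood. In an acute phase response, interleukin 6 reaches the hepatocyte, STAT3 is phosphorylated and moves to the nucleus, and it raises transcription of fibrinogen, haptoglobin, hemopexin, orosomucoid and serum amyloid A genes together with C/EBP factors. Albumin, transthyretin and retinol binding protein are not raised by this route and are called negative acute phase proteins where they fall. Pancreas and liver share an endodermal origin and several of the transcription factors that act on these genes, and some plasma protein genes are also transcribed in epithelia, macrophages and islets.

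The proximal promoters show where such factors could bind, and those of Alb and of 3 acute phase genes with a high correlation with Alb (described with the correlations) are printed, a choice made with the values known. RefSeq promoters (GRCm38.p6) were matched for 32 of the 41 genes; Apoc1, Apoc3, Hp, Lbp, Orm1, Plg, Serpina3k, Trf and Ttr had no match. Of the 250 bases before each gene's start, the stretch shown ends where the GENCODE gene begins if that lies further upstream. Capitals mark matches, on either strand, to TTCNNNGAA (STAT3) or TTGCNNAA (C/EBP).
Alb, chr5:90460620-90460869, plus strand: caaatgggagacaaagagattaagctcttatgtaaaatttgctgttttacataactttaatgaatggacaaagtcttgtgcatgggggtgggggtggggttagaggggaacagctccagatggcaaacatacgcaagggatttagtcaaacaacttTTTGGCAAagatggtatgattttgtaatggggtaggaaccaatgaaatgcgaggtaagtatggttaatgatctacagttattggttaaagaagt
Fga, chr3:83025903-83026075, plus strand: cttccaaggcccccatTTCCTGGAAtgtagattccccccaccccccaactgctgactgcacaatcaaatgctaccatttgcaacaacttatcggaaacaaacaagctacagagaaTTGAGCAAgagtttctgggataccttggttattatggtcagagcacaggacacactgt
Fgb, chr3:83049864-83050113, minus strand: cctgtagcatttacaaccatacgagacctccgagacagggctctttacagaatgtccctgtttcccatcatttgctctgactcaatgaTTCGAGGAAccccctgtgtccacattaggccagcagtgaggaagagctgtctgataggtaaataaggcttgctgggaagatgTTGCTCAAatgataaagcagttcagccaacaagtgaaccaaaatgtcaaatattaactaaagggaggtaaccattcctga
Hpx, chr7:105600138-105600366, minus strand: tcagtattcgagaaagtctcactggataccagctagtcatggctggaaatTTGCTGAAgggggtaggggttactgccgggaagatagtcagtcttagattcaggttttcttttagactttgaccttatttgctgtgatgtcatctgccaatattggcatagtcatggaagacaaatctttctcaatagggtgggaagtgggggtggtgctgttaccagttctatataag
The STAT3 letters were at positions -234 to -226 of Fga and -162 to -154 of Fgb, counted back from the RefSeq start, and were not in the windows of Alb and Hpx. Over all members they were in 6 of 32 promoters, 5 of 10 acute phase genes (Apcs, Fga, Fgb, Hamp and Itih4) and 1 of 22 constitutive genes (F9), against 7.18% of 27025 promoters of the same length. C/EBP letters were in 10 of 32 against 9.55% of all, among them Alb, Fga, Fgb and Hpx. Fgg, with an r with Alb of 0.75 against 0.74 for Hpx, was matched but is not printed. Its window had neither STAT3 nor C/EBP letters. The HNF4 letters CAAAGTCCA were in 0 of 32 against 0.381%. No match in these 4 promoters overlapped a match to another motif, and a match is a description of letters, not of binding.

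Libraries held 5691707 to 8085609 counts. Normal exocrine pancreas differed widely: 15 acinar genes took over 15% of the library in 5 tumours (Alb-Cre Stat3f/f 1, 2, 3 and 4, and WT 5), and 0.548 to 12.5% in the other 7 tumours. The 32 members that passed the low count filter (at least about 10 counts in most tumours of a group) were 23 constitutive and 9 acute phase genes. Apoa5, Apom, F9, F12, Itih1, Orm1, Orm2, Apcs and Hamp did not pass. The 23 hepatocyte genes that are not secreted products were thinly covered, and 11 passed. Their summed level was 137 to 210 CPM (counts scaled to library size) in WT and 172 to 326 in Alb-Cre Stat3f/f tumours. Arg1, which macrophages also express, had a mean of 115 CPM over the 12 tumours, while Cyp2e1, a hepatocyte cytochrome, had a mean of 3.48. In bulk tumour RNA, fewer cells of a type and less RNA per cell cannot be told apart.

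All 41 genes together took 0.0781 to 0.173% of counts in WT tumours (mean 0.125 ± 0.0377, SD, n = 6) and 0.0526 to 0.122% in Alb-Cre Stat3f/f tumours (0.0798 ± 0.0264). The groups overlapped, with 3 of 6 Alb-Cre Stat3f/f tumours below every WT tumour. These shares are of raw counts, of which acinar genes took 25.0 to 40.1% in 4 Alb-Cre Stat3f/f tumours. Of the TMM scaled library size, used for all CPM values, the share was 0.106 ± 0.0263% for WT and 0.0909 ± 0.0158% for Alb-Cre Stat3f/f tumours, with 1 of 6 below every WT tumour. Trf alone gave 38.8% of the member counts, Lbp 11%, Rbp4 8.04% and Alb 7.08%. A sum over these genes was therefore mostly a sum of Trf, Lbp and Rbp4.

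Among the carriers in plasma, Trf encodes transferrin, which binds iron. It had 3521, 3447, 3582, 3890, 2490 and 2356 counts in WT 1 to 6, and 1965, 1281, 1342, 2458, 2955 and 2748 counts in Alb-Cre Stat3f/f 1 to 6. Scaled to library size these were 327 to 471 CPM in WT and 288 to 379 CPM in Alb-Cre Stat3f/f tumours, with 2 of the second group under the lowest WT value. Rbp4, the retinol carrier, had 1083, 714, 768, 695, 443 and 531 counts in WT and 405, 242, 318, 495, 555 and 398 counts in Alb-Cre Stat3f/f tumours. In CPM, 5 of 6 Alb-Cre Stat3f/f tumours (50.4 to 74.4 over all 6) lay below every WT tumour (72.4 to 123). Ttr, the thyroxine carrier that also binds Rbp4, had 300, 312, 386, 566, 160 and 177 counts in WT and 217, 171, 162, 372, 313 and 124 counts in Alb-Cre Stat3f/f tumours, and its CPM ranges overlapped (24.5 to 67.0 and 15.7 to 55.9).

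Alb, on chromosome 5 (90460897 to 90476602, plus strand, GRCm38), varied far more. It had 623, 89, 1125, 802, 212 and 231 counts in WT tumours. In Alb-Cre Stat3f/f tumours it had 738, 252, 276, 935, 534 and 37 counts. That is 12.2 to 140 CPM in WT and 4.69 to 140 CPM in Alb-Cre Stat3f/f tumours. The lowest level was in Alb-Cre Stat3f/f 6, and the highest levels, nearly equal, were in Alb-Cre Stat3f/f 4 and WT 3. Across tumours log2 Alb CPM had a Pearson r of 0.12 with the acinar percent of counts, 0.14 with the library total and 0.13 with the number of genes with a count, given as descriptions over 12 tumours.

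Apoa1 and Apoa2, the main proteins of high density lipoprotein, moved with Alb. Apoa2 had 150, 36, 193, 183, 34 and 51 counts in WT and 136, 52, 105, 130, 122 and 11 counts in Alb-Cre Stat3f/f tumours. Apoa1 had 174, 64, 330, 238, 34 and 69 counts in WT and 165, 80, 78, 173, 152 and 11 in Alb-Cre Stat3f/f tumours. Both were lowest in Alb-Cre Stat3f/f 6 and highest in WT 3, as Alb counts were. Serpina1a, one of the mouse alpha-1-antitrypsin genes, had 31, 5, 64, 59, 17 and 17 counts in WT and 40, 11, 23, 28, 29 and 0 counts in Alb-Cre Stat3f/f tumours. Serpina1a, Serpina1b and Serpina1c are near-identical neighbours on chromosome 12, and the treatment of reads they share is not stated here. Serpina1b and Serpina1c had 21 to 142 and 7 to 99 counts in a tumour (r with Alb of 0.84 and 0.86).

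The other constitutive genes with a high r with Alb are given by their range. Ahsg had 39 to 364 counts in a tumour (r = 0.91) and Gc, the vitamin D carrier, 52 to 287 (r = 0.87). Ambp, the precursor of alpha-1-microglobulin and bikunin, had 22 to 92 (r = 0.77), and Serpina3k, a kallikrein inhibitor, 12 to 178 (r = 0.92). The clotting genes F2, prothrombin, and Plg, plasminogen, had 0 to 39 and 0 to 61 counts (r = 0.79 and 0.63), and Serpinc1, antithrombin, 1 to 71 (r = 0.91). Apoc1, Apoc3 and Apoh, further apolipoproteins, had 12 to 72, 1 to 49 and 1 to 19 counts (r of 0.75, 0.83 and 0.92). Itih2 had 6 to 32 (r = 0.77). In CPM, Alb-Cre Stat3f/f 6 was the lowest tumour for 9 of these 11 genes, the exceptions being Ambp (WT 2) and Apoc1 (WT 6).

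Apob, the protein of very low density lipoprotein, did not follow Alb. It had 225, 303, 438, 593, 114 and 323 counts in WT and 254, 133, 35, 118, 266 and 147 counts in Alb-Cre Stat3f/f tumours, with 303 in WT 2 where Alb had 89.

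**Figure D1:**
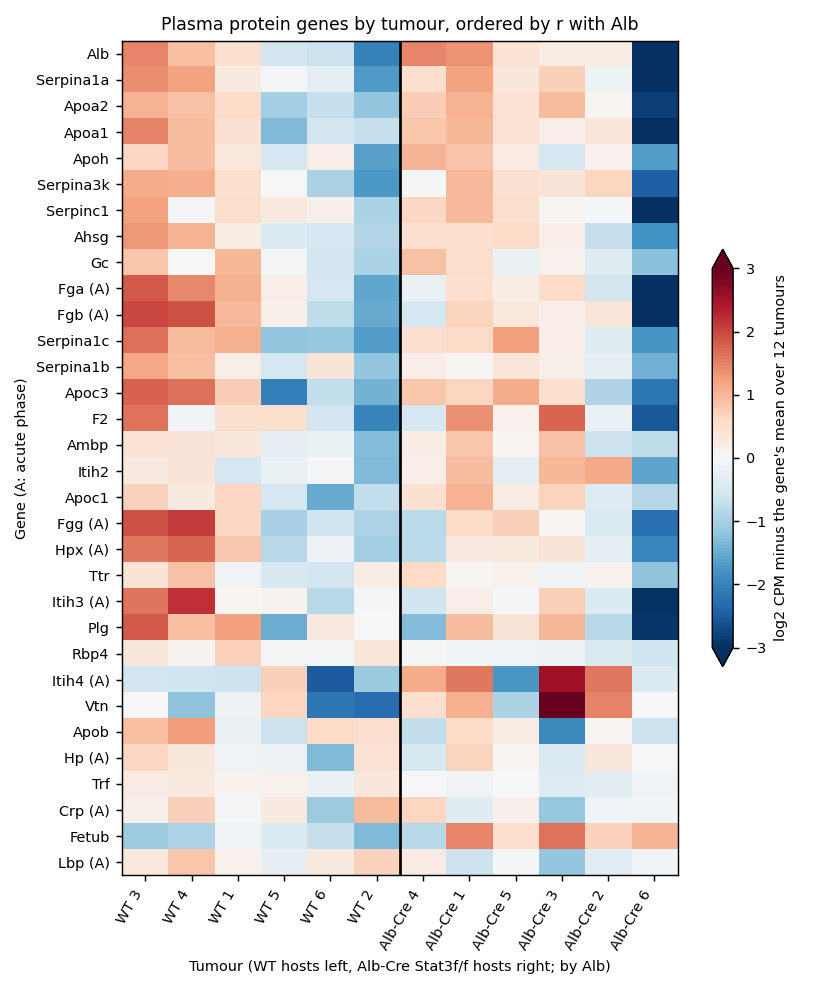
Heat map of the 32 tested genes (rows, ordered by Pearson r with Alb; A marks acute phase genes) in 12 tumours (columns, by host and then by Alb level). Colour is log2 CPM minus the gene's mean over the 12 tumours, and values beyond 3 in either direction take the end colour. The upper 23 rows are pale or red in WT 3 and blue in Alb-Cre Stat3f/f 6, and the lower 9 rows, from Rbp4 down, are not ordered that way.

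Covariation with Alb was measured for every gene as Pearson r and Spearman rho of log2 CPM over the 12 tumours. The members split into a set of 22 with r of 0.63 (Plg) to 0.96 (Serpina1a) and a set of 9 with r of at most 0.34 (Rbp4). This split was made after the values were seen. The median r of the 31 members was 0.77, against -0.01 over 12855 genes, and 13 of the 20 genes with the highest r were members. At an unadjusted permutation p under 0.05, 22 of 31 members and 307 of 12855 genes (2.39%) had a positive r. After Benjamini-Hochberg adjustment over all genes, 0 members and 0 genes (0.0%) passed 0.05 in this permutation test, the smallest adjusted p being 0.103. The smallest unadjusted p was 1e-05, the lowest that 100000 permutations can give. Over 12855 genes, a gene alone at that p could not pass. The number of permutations thus limited this test, and its lack of calls does not show a lack of covariation.

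The 3 members with the highest r were Serpina1a, Apoa2 and Apoa1. Serpina1a had r = 0.957 and rho = 0.881 (permutation p of 3e-05 and 0.00034, adjusted 0.103 and 0.728), and Apoa2 had r = 0.953 and rho = 0.867 (permutation p of 2e-05 and 0.00055, adjusted 0.103 and 0.783). For Apoa1 r was 0.937 and rho 0.930 (permutation p of 8e-05 for each, adjusted 0.103 and 0.471). Without Alb-Cre Stat3f/f 6 and WT 2, the 2 tumours farthest from the median of Alb, r was 0.81, 0.86 and 0.92 for these 3 genes. Within WT tumours it was 0.98, 0.94 and 0.84, and within Alb-Cre Stat3f/f tumours 0.96, 0.96 and 0.99 (n = 6 each, as descriptions), so the relation was present in both hosts.

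An edgeR test of each gene's slope on log2 Alb, with host genotype in the model, was added after the permutation test had called 0 genes. It called 16 of 12855 genes (0.124%), and 11 of them were members: Apoa1, Apoa2, Apoc3, Ahsg, Gc, Serpina1a, Serpina1c, Serpina3k, Serpinc1, Fga and Fgb. The other 5 were Pzp, Mug1 and Kng1, which encode further plasma proteins of the liver, Pck1, the gluconeogenic enzyme, and Fabp1, the liver fatty acid binding protein. The slope was 0.78 ± 0.09 (SE) for Apoa2, 0.79 ± 0.09 for Apoa1 and 0.99 ± 0.14 for Fgb, in log2 units per log2 unit of Alb. This count rested on few tumours: 2 members were called without Alb-Cre Stat3f/f 6, 5 without WT 2, 7 without WT 3 and 0 without the first 2 of these together. Among genes that are not members, the 10 with the highest r were Pck1 (0.95), Mug1 (0.95), Pzp (0.93), Trak2 (0.88), Slc35g1 (0.85), Txndc11 (0.85), Kng1 (0.85), Apoc4 (0.83), Serpina1d (0.82) and H2-Q10 (0.82). Of these, Pck1, Mug1, Pzp, Kng1, Apoc4, Serpina1d and H2-Q10 are known as genes of the liver.

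**Figure D2:**
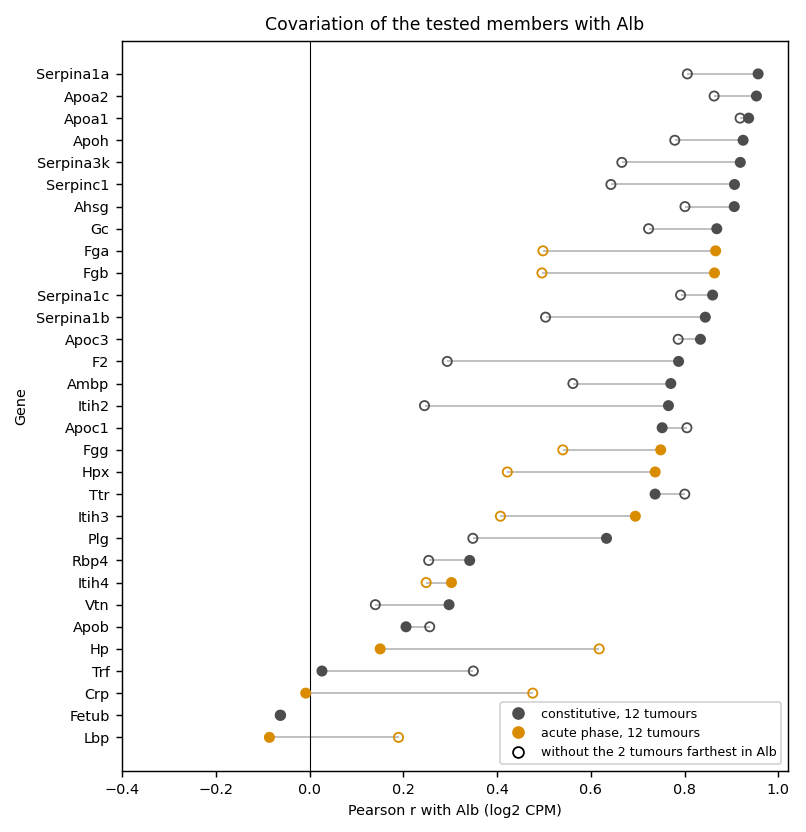
Pearson r with Alb of 31 members over 12 tumours (filled circles) and without Alb-Cre Stat3f/f 6 and WT 2 (open circles); orange marks acute phase and grey constitutive genes. Filled circles of 22 genes lie at 0.63 or above and those of 9 genes at 0.34 or below; F2 and Itih2 fall to 0.29 and 0.25 without these tumours, and Hp rises to 0.62.

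**Figure D3:**
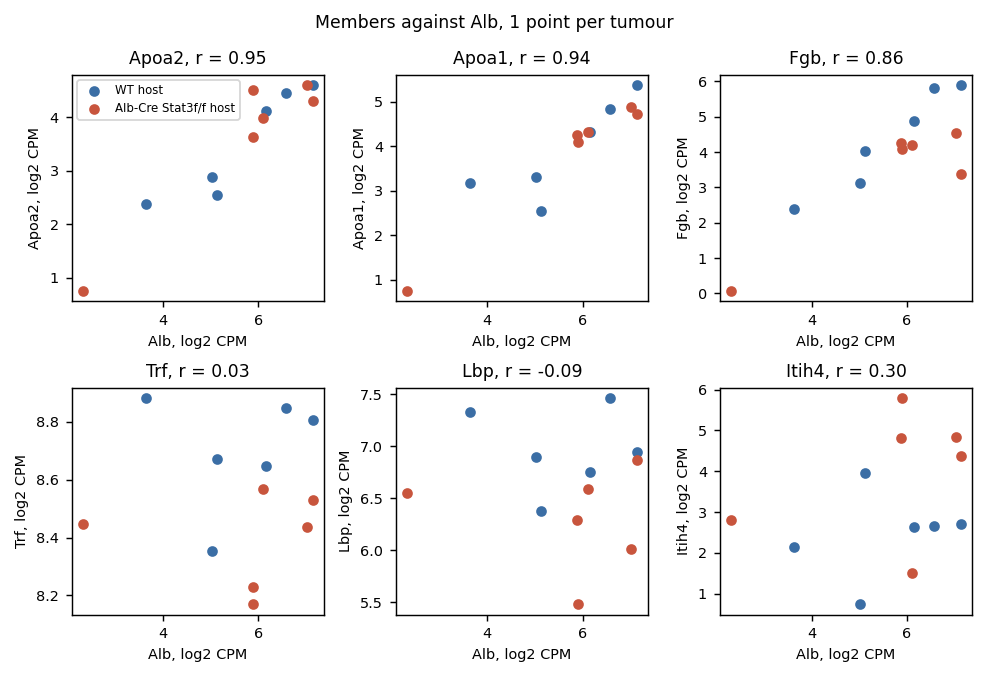
Log2 CPM of Apoa2, Apoa1, Fgb, Trf, Lbp and Itih4 (vertical axes) against log2 CPM of Alb (horizontal axes), 1 point per tumour, coloured by host. Apoa2, Apoa1 and Fgb rise with Alb, whereas Trf (r = 0.03), Lbp (r = -0.09) and Itih4 (r = 0.30) are scattered.

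The acute phase genes fell on both sides of this split. Fga, Fgb and Fgg, the 3 fibrinogen chains, lie next to each other on chromosome 3 (83007724 to 83049863), and had r with Alb of 0.87, 0.86 and 0.75. Hpx, which binds free heme, had 0.74, and Itih3, a heavy chain of the inter-alpha-trypsin inhibitors, 0.69. Without the 2 farthest tumours these 5 values were 0.50, 0.50, 0.54, 0.42 and 0.41. Itih4, Hp, Crp and Lbp had r of 0.30, 0.15, -0.01 and -0.09, and were among the 9 that did not follow Alb, with the constitutive genes Apob, Fetub, Trf, Vtn and Rbp4.

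The 3 members with the lowest r were Lbp, Fetub and Crp. Lbp encodes the lipopolysaccharide binding protein. It had 944, 1172, 984, 1489, 507 and 859 counts in WT and 365, 333, 207, 776, 748 and 738 in Alb-Cre Stat3f/f tumours. Fetub, which encodes fetuin B, an inhibitor of the ovastacin protease, had 117, 41, 54, 63, 66 and 64 counts in WT and 229, 100, 212, 53, 162 and 234 in Alb-Cre Stat3f/f tumours. In CPM Fetub was highest in Alb-Cre Stat3f/f 3 (45.4), with 29.7 in Alb-Cre Stat3f/f 6, where Alb was lowest. Its r with Alb was -0.06, although its neighbour on chromosome 16, Ahsg, which encodes fetuin A, had r = 0.91. Crp, a pentraxin that is a weak acute phase protein in mice, had 35, 61, 37, 59, 31 and 13 counts in WT and 18, 16, 8, 44, 36 and 31 in Alb-Cre Stat3f/f tumours.

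The r of these 9 genes with the summed levels of other lists is given as a description over 12 tumours. Itih4 had r = 0.95 and Vtn, which encodes vitronectin, r = 0.88 with the acinar genes. Lbp, Trf, Rbp4 and Apob had r of 0.78, 0.74, 0.60 and 0.60 with the ductal or tumour genes (Krt19, Krt18, Krt8, Epcam, Krt7 and Sox9), while Fetub had -0.81. Both hosts are pooled in these r, and the ductal or tumour sum did not overlap between them (2657 to 3043 CPM in WT, 1895 to 2419 in Alb-Cre Stat3f/f). The part of the host difference in these r was not tested. Apob had 0.73 with the mesothelial list, whose sum was mostly Msln (mean 129 CPM over the 12 tumours, against 6.64 for Wt1, the next highest). Hp had 0.56 with the adipocyte list, and Crp had no r above 0.39 with any of the 7 lists. By contrast, Alb itself had 0.13 with the acinar and -0.12 with the ductal or tumour list.

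Host genotype was compared by edgeR over 12856 genes, and at an adjusted p under 0.05 Alb-Cre Stat3f/f tumours were higher than WT in 287 genes (2.23%) and lower in 96 (0.747%). Among the 32 members 1 was higher, Fetub, and 0 were lower. At an unadjusted p under 0.05, 3 were higher (Fetub, Itih4 and Vtn) and 3 lower (Rbp4, Lbp and Trf), 6 of 32 where 19.4% of all genes were at that threshold. DESeq2 called 1 higher (Fetub) and 2 lower (Rbp4 and Lbp), against 6.96% of all genes. These shares of the members were close to those of all genes. The median log2 fold change (Alb-Cre Stat3f/f over WT) was -0.12 over 23 constitutive genes, 14 of them negative, and -0.93 over 9 acute phase genes, 8 of them negative, against -0.00077 over all genes. The constitutive median turned to 0.14 without Alb-Cre Stat3f/f 6, 0.16 without WT 3 and 0.08 without WT 4, and was -0.78 without the 5 tumours rich in acinar genes. The acute phase median was -1.39 in the last case and -1.13 to -0.62 without any 1 tumour. Without the tumours rich in acinar genes, only Alb-Cre Stat3f/f 5 and 6 were left in their group. Alb-Cre Stat3f/f 6 had the lowest Alb level of all tumours. In that fit 35 members passed the filter, 11 of them acute phase genes. No member had groups that did not overlap in CPM, in either direction, against 0.646% of all genes lower and 1.37% higher in every Alb-Cre Stat3f/f tumour.

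Fetub had 8.79 ± 2.85 CPM in WT and 27.9 ± 13.7 CPM (SD, n = 6) in Alb-Cre Stat3f/f tumours. Of the latter, 5 of 6 exceeded the highest WT value, and Alb-Cre Stat3f/f 4 (7.96 CPM) did not. The log2 fold change was 1.66 ± 0.35 (SE, edgeR adjusted p = 0.022). It was 1.45 with an adjusted p of 0.0973 when the acinar level was a covariate, and 1.58 with an adjusted p of 0.020 without the 5 tumours rich in acinar genes. The call was also lost, at adjusted p of 0.0508 to 0.0599, without Alb-Cre Stat3f/f 1, WT 3, WT 4 or WT 6, each left out alone.

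Rbp4 had a log2 fold change of -0.48 ± 0.14 (edgeR adjusted p = 0.0591), and 5 of 6 Alb-Cre Stat3f/f tumours were below every WT tumour. Its adjusted p was under 0.05 by DESeq2 (0.0228), without a filter (0.0398), and without Alb-Cre Stat3f/f 4, Alb-Cre Stat3f/f 5 or WT 5. Lbp had -0.64 ± 0.23 (adjusted p = 0.144) and Trf -0.31 ± 0.11 (adjusted p = 0.115). In the same comparison 2 of 6 ductal or tumour genes, Krt7 and Sox9, were lower (log2 fold change -0.59 and -0.49), and the list's summed level was 2657 to 3043 CPM in WT and 1895 to 2419 CPM in Alb-Cre Stat3f/f tumours; the part this had in Rbp4, Lbp and Trf was not tested. Itih4 had 10 to 93 counts in WT and 20 to 257 in Alb-Cre Stat3f/f tumours, and Vtn 12 to 89 and 36 to 375. Itih4 and Vtn had log2 fold changes of 1.85 ± 0.71 and 1.95 ± 0.77 (adjusted p of 0.186 and 0.198). With the acinar level as a covariate these became 0.34 ± 0.32 and 0.64 ± 0.48, and without the tumours rich in acinar genes -0.03 ± 0.51 and 0.48 ± 0.64.

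Among the acute phase genes with the most counts, Fgb had 254, 36, 477, 469, 99 and 61 counts in WT and 131, 80, 78, 67, 142 and 6 in Alb-Cre Stat3f/f tumours. Its 3 highest tumours, WT 3, WT 4 and WT 1, were WT, and its lowest was Alb-Cre Stat3f/f 6. Hpx had 202, 46, 320, 375, 44 and 84 counts in WT and 90, 46, 80, 49, 125 and 25 counts in Alb-Cre Stat3f/f tumours, with the same 3 WT tumours on top. Hp, which binds free hemoglobin, had 248, 300, 373, 322, 164 and 86 counts in WT and 274, 165, 104, 143, 247 and 242 in Alb-Cre Stat3f/f tumours. The fold changes were -1.01 ± 0.73 for Fgb, -0.93 ± 0.58 for Hpx and 0.00 ± 0.29 for Hp on the log2 scale (edgeR adjusted p of 0.495, 0.413 and 0.996), so none differed beyond the spread between tumours. Fga, Fgg and Itih3 had -0.95 ± 0.64, -1.07 ± 0.68 and -1.26 ± 0.66 (adjusted p of 0.450, 0.420 and 0.316). Fga had 9 to 128 counts in WT and 2 to 39 in Alb-Cre Stat3f/f tumours, Fgg 8 to 112 and 3 to 38, and Itih3 7 to 85 and 0 to 16.

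The acute phase genes were then read against the constitutive ones. Per tumour, the summed acute phase counts over the summed constitutive counts were 0.244 to 0.382 in WT and 0.225 to 0.291 in Alb-Cre Stat3f/f tumours. On the log2 scale this was -1.77 ± 0.24 (SD, n = 6) for WT tumours and -2.02 ± 0.16 for Alb-Cre Stat3f/f tumours, with 4 of 6 Alb-Cre Stat3f/f tumours below every WT tumour. The ratio mostly compared Lbp with Trf, since Lbp gave 25.9 to 73.4% of the acute phase counts and Trf 38.9 to 69.0% of the constitutive counts of a tumour. Restricted to Alb and the 22 members that followed it, a choice made after the correlations were seen, the ratio was 0.15 to 0.384 in WT and 0.0666 to 0.189 in Alb-Cre Stat3f/f tumours. Its log2 was -2.06 ± 0.48 and -2.91 ± 0.61, and the groups still overlapped, with 3 of 6 Alb-Cre Stat3f/f tumours below every WT tumour. These are sums over chosen genes and carry no test.

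With the summed constitutive level as a covariate, edgeR called 260 of 12856 genes (2.02%) and 0 of 9 acute phase genes. At an unadjusted p under 0.05 there were 2, against 17.6% of all genes, Lbp (log2 fold change -0.60 ± 0.24) and Itih4 (1.93 ± 0.75). Fgb was at -0.28 ± 0.49, Fga at -0.39 ± 0.39 and Hpx at -0.34 ± 0.34. Trf, which did not follow Alb (r = 0.03), gave 38.9 to 69.0% of this covariate's counts. Alb itself was at 0.67 ± 0.43 in this fit, so an equal sum is not an equal Alb level. With Alb alone as the covariate, 272 genes (2.12%) were higher and 88 (0.685%) lower, again with 0 of 9 acute phase genes past the adjusted threshold. At an unadjusted p under 0.05 there were then 7 of 9, against 18.8% of all genes. Of these, 6 were lower in Alb-Cre Stat3f/f tumours, against 7.72% of all genes: Fga -1.0 ± 0.31, Fgb -1.01 ± 0.31, Fgg -0.97 ± 0.42, Hpx -0.82 ± 0.33, Itih3 -1.35 ± 0.51 and Lbp -0.64 ± 0.24 (edgeR adjusted p of 0.0820 to 0.214). The seventh, Itih4, was higher. Of the 22 constitutive genes in that fit, 4 had an unadjusted p under 0.05, 2 lower and 2 higher, and their median was -0.21. Among genes that followed Alb, a choice made after the correlations were seen, 5 of 5 acute phase and 0 of 17 constitutive genes were at that threshold. Their medians were -1.0 and -0.20, and 12 of the 17 were negative. The 5 acute phase genes are not independent of each other. Fga, Fgb and Fgg are neighbours, and the 22 genes that followed Alb had a median r of 0.78 between pairs.

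The count at this threshold depended on the tumours and on the covariate. Leaving out each tumour in turn from the fit with Alb gave 3 to 7 acute phase genes at an unadjusted p under 0.05, 3 without WT 4 and 4 without Alb-Cre Stat3f/f 1. The Fga value ran from -1.28 to -0.81 and the Fgb value from -1.16 to -0.79, with an adjusted p under 0.05 in 1 of 12 such fits for each. With Alb and the acinar level together, 3 of 9 remained at an unadjusted p under 0.05 (Fga, Fgb and Itih3), against 11.5% of all genes. With the hepatocyte genes that are not secreted as the covariate it was 0 of 9, against 10.0% of all genes, while the median fold was larger (-1.28, 8 of 9 negative, against -0.82 with Alb). In the fit with Alb, Rbp4 was called lower (-0.49 ± 0.13, adjusted p = 0.0403) and Fetub higher (1.66 ± 0.37, adjusted p = 0.0336). Without 1 tumour at a time, Fetub was called in 4 of 12 fits (without Alb-Cre Stat3f/f 4, Alb-Cre Stat3f/f 5, WT 1 or WT 5) and Rbp4 in 5 of 12 (without Alb-Cre Stat3f/f 4, Alb-Cre Stat3f/f 5, WT 4, WT 5 or WT 6).

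**Figure D4:**
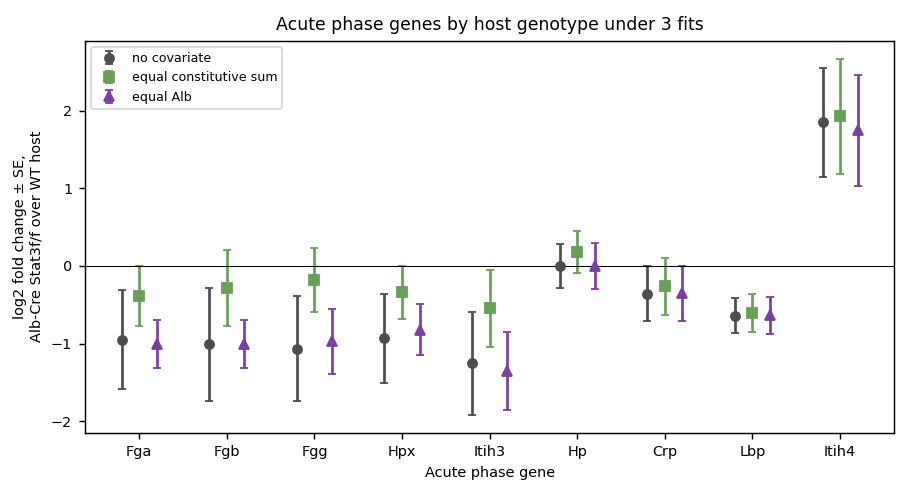
Log2 fold change (Alb-Cre Stat3f/f over WT, points) with its SE (bars) of the 9 tested acute phase genes in edgeR fits with no covariate (circles), with the summed constitutive level (squares) and with Alb (triangles) as a covariate. Fga, Fgb, Fgg, Hpx and Itih3 lie near -1 with no covariate and with Alb, where the bars are shorter, and between -0.55 and -0.18 at equal constitutive sum.

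Set against Alb tumour by tumour, Fga had 13, 10.1, 11.4, 12.6, 14.2 and 9.09 counts per 100 Alb counts in WT, and 4.74, 4.76, 10.9, 2.57, 7.30 and 5.41 in Alb-Cre Stat3f/f tumours. Alb-Cre Stat3f/f 3 lay within the WT range and the other 5 below it. For Fgb these ratios were 26.4 to 58.5 in WT and 7.17 to 31.7 in Alb-Cre Stat3f/f tumours, with 3 of 6 below every WT tumour. Fgg (3.77 to 14.0 and 1.07 to 8.11) and Hpx (20.8 to 51.7 and 5.24 to 67.6) also had 3 of 6 below every WT tumour. For Hpx 1 Alb-Cre Stat3f/f tumour lay above every WT tumour. Itih3 (2.89 to 15.7 and 0 to 5.80) had 5 of 6 below every WT tumour, among them the 0 of Alb-Cre Stat3f/f 6. Of the 17 constitutive genes that followed Alb, 12 were lower per Alb count, with a median log2 difference of -0.21 and a range from -1.39 (Plg) to 0.37 (Itih2). The 5 acute phase genes that followed Alb were at -1.50 to -0.83. Ahsg (-0.36), Serpina1a (-0.68) and Serpina1b (-0.43) also had 3 of 6 Alb-Cre Stat3f/f tumours below every WT tumour, as Fgb, Fgg and Hpx had. Apoa2 (0.0068) had 1. Of the 31 tested members 0 had groups that did not overlap per Alb count, against 0.0% of 12855 genes lower and 0.0156% higher in every Alb-Cre Stat3f/f tumour. The ratios of Alb-Cre Stat3f/f 6 rest on 37 Alb counts.

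**Figure D5:**
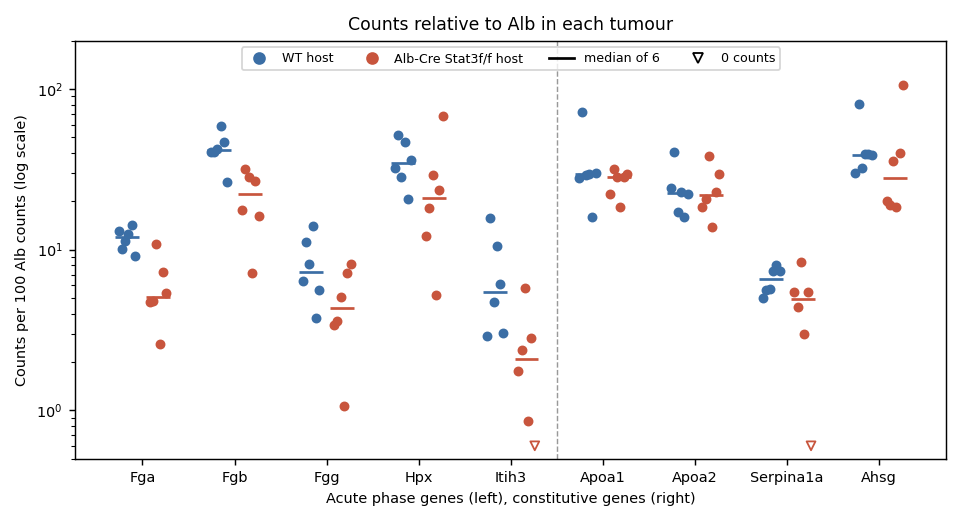
Counts per 100 Alb counts (vertical log axis) of the 5 acute phase genes that followed Alb and of 4 constitutive genes, 1 point per tumour, with the median of 6 tumours as a bar; triangles mark tumours with 0 counts. For Fga and for Itih3 the points of 5 Alb-Cre Stat3f/f tumours lie under all WT points, 1 of those for Itih3 being at 0 counts. For Fgb, Fgg and Hpx 3 do. The points of the 4 constitutive genes overlap, 3 Alb-Cre Stat3f/f tumours lying under all WT points for Serpina1a and for Ahsg.

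The 9 members below the filter were compared by summed counts, with intervals that cover counting error only. Orm1, the main orosomucoid gene, had 13, 9, 30, 66, 5 and 9 counts in WT and 7, 4, 5, 1, 6 and 0 in Alb-Cre Stat3f/f tumours. That is 132 against 23 counts, or 4.62 times more in WT after scaling to library size (95% interval 2.95 to 7.55, exact binomial). WT 4 held 66 of the counts, and without it the ratio was 2.83 (1.74 to 4.77). Per 100 Alb counts Orm1 was 2.09 to 10.1 in WT and at most 1.81 in Alb-Cre Stat3f/f tumours, but the 0 of Alb-Cre Stat3f/f 6 allows up to 8.11 at a floor of 3 counts. Apcs, which encodes serum amyloid P, had 46 and 14 counts (2.65, 1.43 to 5.21), of which WT 4 held 28, and 1.27 (0.596 to 2.76) without that tumour. Apoa5, an apolipoprotein of triglyceride metabolism, had 44 and 12 (2.95, 1.53 to 6.14), and 1.95 (0.939 to 4.28) without WT 3. F9, the clotting factor IX gene, had 25 and 9 (2.24, 1.01 to 5.45), and 1.73 (0.722 to 4.45) without WT 3. The intervals of Apom, F12, Itih1 and Hamp, the hepcidin gene, included equal levels, with ratios of 1.03 to 1.30. Orm2 had 1 and 2 counts, too few for a ratio.

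Of 10 other acute phase genes 8 were tested and 0 passed in either direction by edgeR (6 positive, 2 negative, median log2 fold change 0.32). At an unadjusted p under 0.05 there were 4, against 19.4% of all genes: 3 higher (Serpina3n, Lrg1 and Steap4) and 1 lower (Saa2). DESeq2 called 2 higher, Serpina3n and Steap4, against 6.96% of all genes. Saa1 and Saa2, serum amyloid A genes of the liver, had 227 and 202 counts in WT and 24 and 28 counts in Alb-Cre Stat3f/f tumours; WT 4 held 119 and 117 of them. Saa2 passed the filter, where Saa1 did not, and had a log2 fold change of -2.32 ± 0.83 (edgeR adjusted p = 0.145). Serpina3n had a log2 fold change of 0.79 ± 0.30 and Saa3 0.54 ± 0.32. Of 20 regulators of the acute phase and of hepatocyte identity 18 were tested, and 2 rose: Il6ra, the interleukin 6 receptor (0.72 ± 0.16, edgeR adjusted p = 0.018), and Cebpa, a C/EBP factor (0.51 ± 0.13, adjusted p = 0.0332). Both are also expressed by macrophages, and 5 of 8 macrophage genes were higher, the list's summed level being 2050 to 3715 CPM in WT and 2628 to 4289 CPM in Alb-Cre Stat3f/f tumours; its part in these calls was not tested. DESeq2 called 3 regulators higher, Il6ra, Cebpa and Lifr, against 6.96% of all genes. By edgeR Lifr had a log2 fold change of 0.94 ± 0.27 (adjusted p = 0.0780). Of the 11 hepatocyte genes that passed the filter, 0 were called by edgeR (5 positive, 6 negative, median -0.04). At an unadjusted p under 0.05 there was 1, and DESeq2 called 1 higher. Singly, these 11 had a median r of 0.54 with Alb, from -0.30 (Arg1) to 0.82 (Fabp1), with 0.78 for both Cyp2e1 and Cps1, a urea cycle enzyme. The median constitutive member had 0.81.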

How the data were processed

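RNA of 12 tumours was read as 3' end libraries (QuantSeq FWD), per the labels' protocols. The authors deposited raw counts per gene symbol, with no normalisation. The submitters' processing notes name STAR and mm10; of their versions, the counting tool, annotation, strand setting and treatment of reads shared between paralogs, nothing is stated here. Beside 24956 gene symbols the table had 26 entries named by a date number, which were left out (0.0690 to 0.166% of a library's counts). No molecular identifiers are stated, so intervals cover counting error only.

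The counts went into edgeR 4.0.16 (R 4.3.3): filterByExpr (minimum count 10, minimum total 15, large-group proportion 0.7), TMM scaling and the robust quasi-likelihood test, two-sided, with Benjamini-Hochberg adjustment over all genes tested and 0.05 as the threshold. Covariates were the log2 CPM of the summed constitutive members, of Alb or of the hepatocyte genes, or the mean log2 CPM of the acinar genes. An SE is the log2 fold change divided by the root of the F statistic. Correlations used log2 CPM with a prior count of 2 and 100000 permutations of Alb. DESeq2 1.42.0 was an alternative. Summed counts were compared by exact binomial 95% intervals. The fits and correlations were tested on simulated data with known changes. Promoters came from RefSeq (GRCm38.p6) and gene positions from GENCODE M21 (GRCm38, the assembly of mm10).

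Values in every tumour are given for Alb, the 6 members and 4 acute phase members with the highest mean CPM, members called by host, and the 3 with the highest and lowest r with Alb; further members are given as ranges, and Fga and Orm1 in full, and the constitutive genes plotted per Alb count, were chosen after their values were seen. The 10 other genes with the highest r are named. The members, lists and tests were chosen with earlier results of these data known. Some genes and motifs are not reported here.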

Additional observations from a re-analysis of the deposited data

How the results depend on the processing

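The count of members called by host was 1, and 3 with DESeq2, 2 without a filter, and 0 with the acinar level as a covariate or with both tumours with the fewest Alb counts left out (the last chosen after seeing the data); leaving out 1 tumour gave 0 to 2. Genes called numbered 383, and 895 with DESeq2, 157 with the acinar level, 217 without the tumours with the fewest Alb counts, 97 without the tumours rich in acinar genes, and 178 to 693 without 1 tumour. At equal constitutive level 0 acute phase genes were called under all 7 alternatives and without any 1 tumour; genes called numbered 260, and 156 with Alb and the acinar level (added after seeing the data), 58 with the hepatocyte genes as covariate, 3 without the tumours rich in acinar genes, and 49 to 440 without 1 tumour. The permutation test of r called 0 members with relative log expression scaling, a prior count of 0.5 or genotype means removed, and without any 1 tumour. The number of permutations limited these tests as it did the main one. Without 1 tumour, 18 to 22 members were at an unadjusted p under 0.05. The test also called 0 members with the tumours rich in acinar genes left out. There the smallest permutation p was 0.00028 over 13682 genes, so the few tumours left could hardly give a call. The slope test, added after seeing the data, called 11. The acute phase to constitutive ratio differed by -0.25 (log2) between hosts, by -0.85 over the members that followed Alb (added after seeing the data), and by -0.30 to -0.17 without 1 tumour. The summed share differed by -0.045 percentage points, and by -0.054 to -0.036 without 1 tumour, and by -0.039 to -0.013 under 4 other settings, among them -0.015 as a percent of the TMM scaled library size (added after seeing the data).

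Fitting the replicate number as a block called 1 member and 189 genes. The numbers did not pair the tumours: deviations of same-numbered tumours from their group means had r of 0.127, -0.182, -0.085, 0.107, -0.513 and 0.100. Under the block Hp turned to 0.061, the 1 direction among the named members that the block reversed.

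Directions of genes close to no change also turned. Alb was at 0.26, and at -0.94 without the tumours rich in acinar genes (-0.0081 to 0.65 without 1 tumour), and Apoa2 was at 0.22 and -0.82. That setting left only Alb-Cre Stat3f/f 5 and 6 in their group. Ttr was at -0.12, and at 0.050 without the tumours with the fewest Alb counts (-0.27 to 0.080 without 1 tumour). Apoa1 was at -0.04 and 0.059 (-0.22 to 0.35), Hp at 0.00, 0.080 there and 0.019 under the strict filter of 10 CPM in 6 tumours (-0.18 to 0.13), and Serpina1a at -0.14 (-0.42 to 0.17). At equal constitutive level Hp was at 0.18, at -0.058 with Alb and the acinar level, -0.0024 with Alb and -0.40 with the hepatocyte genes (-0.077 to 0.35). Without the tumours rich in acinar genes Fgg was at 0.32 and Crp at 0.047 there (-0.42 to 0.10 and -0.53 to 0.012 without 1 tumour). Where a cause was not given by a value above, the cause was not tested. Depth limited the members below the filter, whose 12 libraries together held 3 to 155 counts, and every ratio to Alb in the tumour with 37 Alb counts.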
